A study of Mus musculus with 9 samples.

Results

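The genes of this set encode the vacuolar ATPase and the machinery on the lysosome that tells mTORC1 whether nutrients are at hand. They were taken by gene symbol: every gene whose name begins with Atp6v0 or Atp6v1, the third V0 a subunit *Tcirg1*, both accessory proteins of the pump, and the named parts of Ragulator, the Rag GTPases, the folliculin complex, mTORC1, its switch *Rheb* and the TSC proteins, GATOR1, the amino acid sensor *Slc38a9* and the MiT/TFE transcription factors. The table of normalized counts held 46 of them among 13708 genes, 20 for the V-ATPase and 26 for nutrient sensing. Another 7 genes annotated under these names, among them *Atp6v1b1* and *Atp6v0a4*, were not analysed here. All 46 passed the filter on low values, *Rragb* only just.

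Bulk RNA-seq was performed on macrophages (CD45+F4/80+CD11b lo) sorted from E15.5 mouse fetal livers (FL). The 5 Mrc1Cre Xpr1fl/fl samples carried a Cre inserted into *Mrc1*, the gene of the mannose receptor CD206, together with floxed alleles of *Xpr1*, which encodes a phosphate exporter, and the 4 Xpr1fl/fl samples carried the floxed alleles without Cre. Mrc1Cre is also active in liver sinusoidal endothelial cells, and the insertion itself was present in a single genotype, so it cannot be told apart from the loss of *Xpr1*. Each library was made from 45 ng of total RNA, and whether a sample held 1 embryo or several is not given in the sources used here, so the p-values measure the spread between these samples. The columns of the table carry dates whose meaning is not stated: the earliest is on Mrc1Cre Xpr1fl/fl sample 5 and on Xpr1fl/fl samples 1 to 3, a later one on Xpr1fl/fl sample 4, and the latest on Mrc1Cre Xpr1fl/fl samples 1 to 4. *Xpr1* was lower in every Mrc1Cre Xpr1fl/fl sample than in any control (1074 to 1285 against 1781 to 2239 normalized counts, log2 difference -0.77, SE 0.08, adjusted p = 4.13e-05).

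The V-ATPase is a rotary pump. Its V1 sector in the cytosol splits ATP, its V0 sector in the membrane carries protons into the lumen, and in macrophages the resulting acidity serves the digestion of what the cell has engulfed. On the same membrane Ragulator anchors the Rag GTPases, which recruit mTORC1 when amino acids are sufficient. GATOR1 switches the Rags off, folliculin with its FNIP partner acts on RagC and RagD, *Rheb* switches on the recruited kinase and the TSC complex switches off *Rheb*. Active mTORC1 phosphorylates TFEB, TFE3 and MITF and keeps them out of the nucleus, where they would otherwise raise genes of lysosomes and of the pump itself. The data here are levels of mRNA and say nothing of phosphorylation, of the pH of lysosomes or of protein.

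Of the 46 genes, 9 were higher and 9 lower in Mrc1Cre Xpr1fl/fl FL macrophages (limma on log2(normalized count + 1), Benjamini-Hochberg adjusted p under 0.05 over all 13594 genes tested). The genes that rose were *Atp6v1c1*, *Atp6v1h* and *Atp6v0a2* of the pump, its accessory protein *Atp6ap2*, the kinase gene *Mtor* with its partner *Rptor*, the folliculin partners *Fnip1* and *Fnip2*, and the transcription factor *Tfe3*. Those that fell were the pump genes *Atp6v1e1*, *Atp6v1f*, *Atp6v1g1* and *Atp6v0a1*, the Ragulator genes *Lamtor1*, *Lamtor2* and *Lamtor4*, *Rraga* and the GATOR1 gene *Nprl3*. The differences were modest. Log2 differences ran from -0.69 to 0.56, with a median of 0.01 (all genes tested: 0.00), and the median size without regard to sign was 0.17, against 0.25 over all genes tested.

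Such calls were frequent in these libraries. Across all genes tested 43.1% were called, 21.5% higher and 21.6% lower, and of the 46 genes 39.1% were called, 19.6% in each direction. A log2 difference of at least 0.5 together with a call was found for 4 of the 46, or 8.70% (*Atp6v0a2*, *Fnip2*, *Mtor* and *Nprl3*), against 20.6% of all genes tested. For 17 of the 46, or 37.0%, no sample of either genotype lay within the range of the other, 10 of them higher and 7 lower in Mrc1Cre Xpr1fl/fl, and the share over all genes tested was 34.1% (16.6% higher and 17.5% lower). The shares of called and of non-overlapping genes in the set were thus near the background. Scaling each sample to its 75th percentile instead gave 7 higher and 11 lower genes of the set and 1999 higher and 3707 lower genes in all, against 2926 and 2939 without it.

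**Figure D1:**
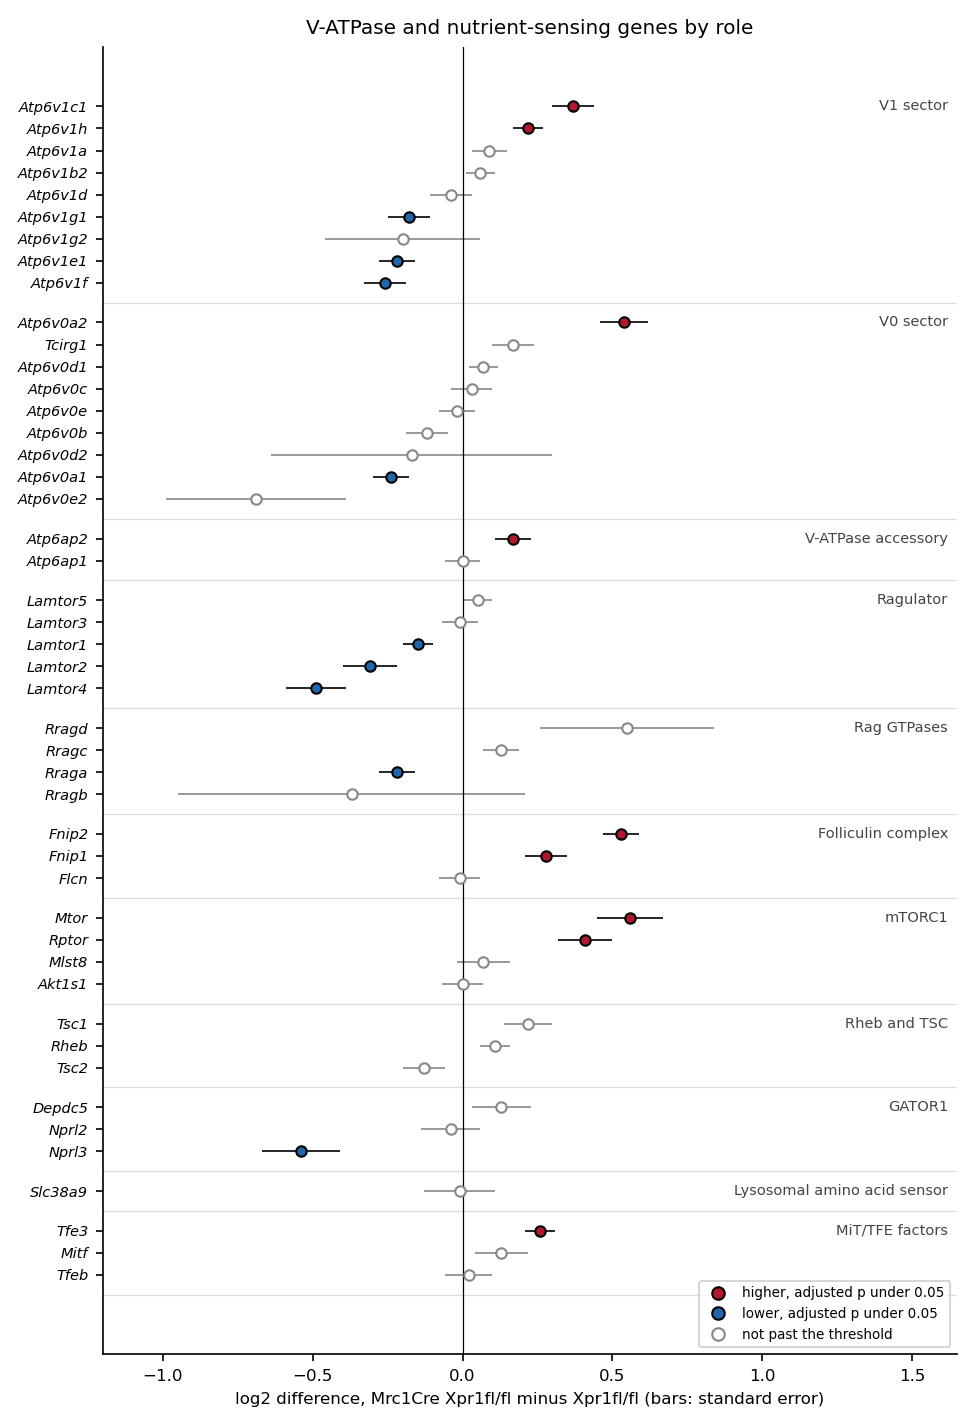
Log2 difference between Mrc1Cre Xpr1fl/fl (n = 5) and Xpr1fl/fl (n = 4) for each of the 46 genes, ordered by role, with bars for the standard error and filled points for genes past an adjusted p of 0.05. Differences lie between -0.69 and 0.56, Ragulator holds 3 of the 9 lower genes, mTORC1 and the folliculin complex 2 each of the 9 higher ones, and the widest bars belong to the genes with the lowest counts.

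The date in the column names and erythroid transcripts moved with the genotype. A fit with the date as a term rests on Mrc1Cre Xpr1fl/fl sample 5 against Xpr1fl/fl samples 1 to 3. These samples are also in the fit without the date. A called gene whose genotypes did not overlap could therefore only keep its direction in the fit with the date. All 18 called genes kept their direction there, 4 of the 46 genes (8.70%) were past the threshold (*Atp6v0a2*, *Fnip2* and *Tcirg1* higher, *Atp6v0e2* lower), and 8.78% of all genes tested were. The 13 erythroid markers, among them the globin genes, were all lower, with a median log2 difference of -1.79, and made up 0.377 to 1.14% of the normalized counts in Mrc1Cre Xpr1fl/fl samples and 1.56 to 2.39% in controls, Mrc1Cre Xpr1fl/fl sample 5 being the highest of its group. All 10 hepatocyte markers were lower, with summed levels of 35346 to 45848 against 59805 to 103220.0 normalized counts. Lower, too, were 8 of 9 endothelial, 5 of 10 granulocyte and monocyte and 2 of 5 megakaryocyte markers. Of the pan-macrophage markers *Ptprc* rose (0.85), with no call for *Adgre1* (mean 46581, SD 1402, n = 5, against mean 46008, SD 4749.5, n = 4) and *Csf1r* (mean 84995, SD 6385, n = 5, against mean 77102, SD 5259, n = 4). The part of the hepatocyte, endothelial, granulocyte and megakaryocyte transcripts in the differences of the 46 genes was not tested. In bulk samples fewer cells of a type and less RNA per cell cannot be told apart. With the mean level of the erythroid markers as a covariate, none of the 46 genes was past the threshold in limma (3 at an unadjusted p under 0.05), and 0.265% of all genes tested were. That score and the genotype share most of their variance (r squared 0.839), so they cannot be told apart here.

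Summed over its 20 genes, the level of the V-ATPase per length overlapped between the genotypes. It was 55879 ± 2226 normalized counts per kilobase of transcript (SD, n = 5) in Mrc1Cre Xpr1fl/fl and 56334 ± 3763 (SD, n = 4) in Xpr1fl/fl samples. The proteolipid *Atp6v0c*, whose copies form the proton-carrying ring, was the highest of all 46 genes, at 12800 and 12500 normalized counts per kilobase. Its 2 annotated pseudogenes were not analysed here, and reads from such near copies can be split between them. *Atp6v0c* was read at 19073, 17256, 19388, 16698 and 19783 normalized counts in Mrc1Cre Xpr1fl/fl samples 1 to 5 and 20082, 16314, 17378 and 18563 in Xpr1fl/fl samples 1 to 4. All Mrc1Cre Xpr1fl/fl samples lay within the range of the controls (log2 difference 0.03, SE 0.07, adjusted p = 0.777).

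In the V1 sector, 2 of 9 genes rose and 3 fell. The most abundant per length was *Atp6v1b2*, the B subunit of the ring that binds ATP, with 12836, 12526, 13198, 12612 and 12653 normalized counts in Mrc1Cre Xpr1fl/fl samples 1 to 5 and 13549, 11696, 11940.5 and 11958 in Xpr1fl/fl samples 1 to 4. No difference past the threshold was found (log2 difference 0.06, SE 0.05, adjusted p = 0.399), nor for its partner in the ring, the catalytic A subunit *Atp6v1a* (mean 7382, SD 653, n = 5, against mean 6902, SD 153, n = 4 normalized counts, log2 difference 0.09, SE 0.06, adjusted p = 0.262). The genes that rose encode parts that join V1 to V0 or regulate that joining. *Atp6v1c1*, the C subunit that leaves the pump when the sectors come apart, ranged from 3283 to 3719.9 against 2418 to 3092 normalized counts (log2 difference 0.37, SE 0.07, adjusted p = 0.00217), and *Atp6v1h*, the H subunit, from 3242 to 3476 against 2719 to 3107 (log2 difference 0.22, SE 0.05, adjusted p = 0.00434). Neither overlapped between the genotypes, although *Atp6v1h* just missed the threshold once samples were scaled to the 75th percentile (0.15, adjusted p = 0.0507). Neither passed in the fit with the date, at 0.24 and 0.26 (adjusted p = 0.25 and 0.101).

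The V1 genes that fell encode parts of the stalks. *Atp6v1e1*, a peripheral stalk subunit, ranged from 3044 to 3714 against 3816 to 4262 normalized counts (log2 difference -0.22, SE 0.06, adjusted p = 0.0142). Its stalk partner *Atp6v1g1* ranged from 4043 to 4411 against 4383 to 5444 (log2 difference -0.18, SE 0.07, adjusted p = 0.045), and *Atp6v1f* of the central stalk from 1994 to 2289.6 against 2331 to 2942 (log2 difference -0.26, SE 0.07, adjusted p = 0.012). The call of *Atp6v1g1* was lost in 6 of the 9 fits that left out a sample, with adjusted p up to 0.102 (without Mrc1Cre Xpr1fl/fl sample 1, 2 or 4 or Xpr1fl/fl sample 1, 3 or 4). None of *Atp6v1e1*, *Atp6v1f* and *Atp6v1g1* passed in the fit with the date (-0.11, -0.23 and -0.14, adjusted p = 0.552, 0.276 and 0.473). Nor did they with trends of transcript length and GC content removed (-0.08, -0.14 and -0.05, adjusted p = 0.241, 0.102 and 0.519). The second G gene *Atp6v1g2*, known mainly from neurons, contributed 0.704 to 1.55% of the G subunit level per kilobase over all samples and gave no call (log2 difference -0.20, SE 0.26, adjusted p = 0.56). The central stalk gene *Atp6v1d* did not pass the test (log2 difference -0.04, SE 0.07, adjusted p = 0.675).

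Of the V0 a subunits, *Atp6v0a2* rose and *Atp6v0a1* fell. These subunits form the path of the protons and their isoforms steer the pump to different membranes, a3 (*Tcirg1*) to lysosomes and to the ruffled border of osteoclasts, a2 to the Golgi and endosomes. *Atp6v0a2* was read at 2977, 3393, 2954, 3196 and 2706 normalized counts in Mrc1Cre Xpr1fl/fl samples 1 to 5 and 1912, 2018, 2099 and 2326 in Xpr1fl/fl samples 1 to 4. Every Mrc1Cre Xpr1fl/fl sample was above every control (log2 difference 0.54, SE 0.08, adjusted p = 0.000229), and the gene stayed past the threshold in the fit with the date (0.43, adjusted p = 0.0298). *Atp6v0a1*, the a1 isoform, fell, with 4176 to 4816 against 4862 to 5728 normalized counts and no overlap (log2 difference -0.24, SE 0.06, adjusted p = 0.00664). The fit with the date gave -0.09 (adjusted p = 0.552), and the removal of trends with transcript length and GC content, described with the lengths, gave -0.11 (adjusted p = 0.108).

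*Tcirg1*, the most abundant a subunit, was read at 9045, 9111, 9733, 10672 and 11315 normalized counts in Mrc1Cre Xpr1fl/fl samples 1 to 5 and 8476, 8872, 8381 and 9587 in Xpr1fl/fl samples 1 to 4. Mrc1Cre Xpr1fl/fl samples 3, 4 and 5 were above all controls and the other 2 within their range, and the difference missed the threshold (log2 difference 0.17, SE 0.07, adjusted p = 0.081). *Tcirg1* passed it in the fit with the date (0.40, adjusted p = 0.0373). Of the summed level of the 3 isoforms per kilobase, *Tcirg1* made up 69.2% ± 1.84 (SD, n = 5) in Mrc1Cre Xpr1fl/fl and 66.4% ± 1.26 (SD, n = 4) in control samples. The share of *Atp6v0a1* was 18.8 to 21.2% against 24.2 to 26.9%, and that of *Atp6v0a2* 8.56 to 12.5% against 7.48 to 8.13%. The ranges of the shares did not overlap for *Atp6v0a1* and *Atp6v0a2* and did for *Tcirg1*. These shares are a description without a test.

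**Figure D2:**
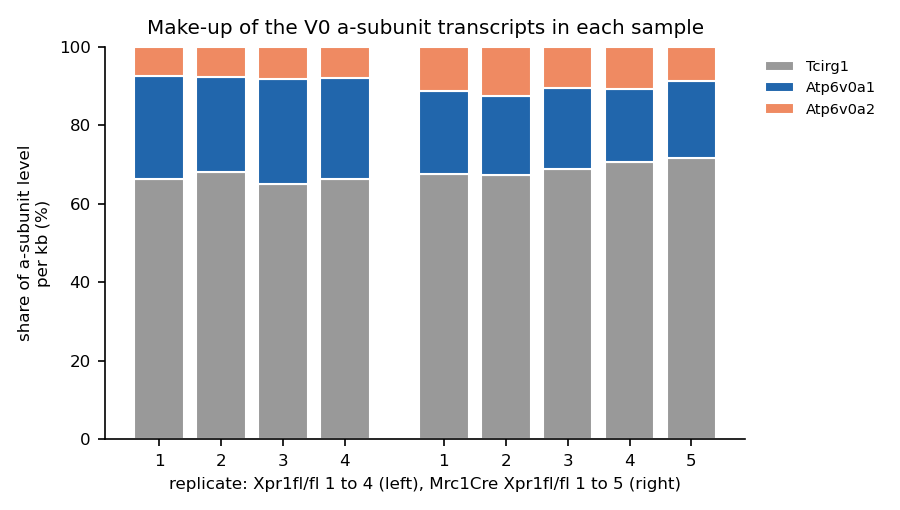
Share of Tcirg1, Atp6v0a1 and Atp6v0a2 in the summed level of the V0 a subunits per kilobase of transcript (%), with a bar for each of the 4 Xpr1fl/fl and 5 Mrc1Cre Xpr1fl/fl samples. Atp6v0a1 takes 24.2 to 26.9% in the controls and 18.8 to 21.2% in Mrc1Cre Xpr1fl/fl samples.

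The other V0 genes did not pass the test. *Atp6v0d1*, the ubiquitous form of the subunit that couples the ring to the stalk, was read at 5900.4, 5868, 6117, 5720.0 and 5813 normalized counts in Mrc1Cre Xpr1fl/fl samples 1 to 5 and 6121, 5415, 5330.4 and 5581 in Xpr1fl/fl samples 1 to 4, a span in which the genotypes overlapped (log2 difference 0.07, SE 0.05, adjusted p = 0.285). Its isoform *Atp6v0d2*, known from osteoclasts and inflammatory macrophages, was close to the floor, with 7.3, 30.5, 26.3, 28.5 and 19.5 against 28.3, 43.9, 19.8 and 11.1 normalized counts, in the same order of samples (log2 difference -0.17, SE 0.47, adjusted p = 0.791). *Atp6v0d2* thus made up 0.540% or less of the d subunit level per kilobase in every sample. *Atp6v0b*, *Atp6v0e* and *Atp6v0e2* had log2 differences of -0.12, -0.02 and -0.69, the last on 12.6 to 49.9 normalized counts (SE 0.30, adjusted p = 0.0851). *Atp6v0e2* passed the threshold in the fit with the date (-1.70, adjusted p = 0.0329). *Atp6v0b* passed it, lower, when samples were scaled to the 75th percentile (-0.20, adjusted p = 0.0419).

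Of the accessory proteins, *Atp6ap1* is needed for the assembly of V0 and was the more abundant per kilobase. It was read at 9422, 9255, 9529, 9954 and 9204 normalized counts in Mrc1Cre Xpr1fl/fl samples 1 to 5 and 10212, 8352, 9787 and 9744 in Xpr1fl/fl samples 1 to 4, with the genotypes interleaved (log2 difference -0.00, SE 0.06, adjusted p = 0.962). *Atp6ap2*, the prorenin receptor, ranged from 6823 to 7570.2 against 5854 to 6718 normalized counts and was called higher (log2 difference 0.17, SE 0.06, adjusted p = 0.0259). That call was lost in 4 of the 9 fits that left out a sample (without Mrc1Cre Xpr1fl/fl sample 1 or 3 or Xpr1fl/fl sample 2 or 3, adjusted p up to 0.0747), and also when samples were scaled to the 75th percentile (0.09, adjusted p = 0.187) and in the fit with the date (0.15, adjusted p = 0.36).

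**Figure D3:**
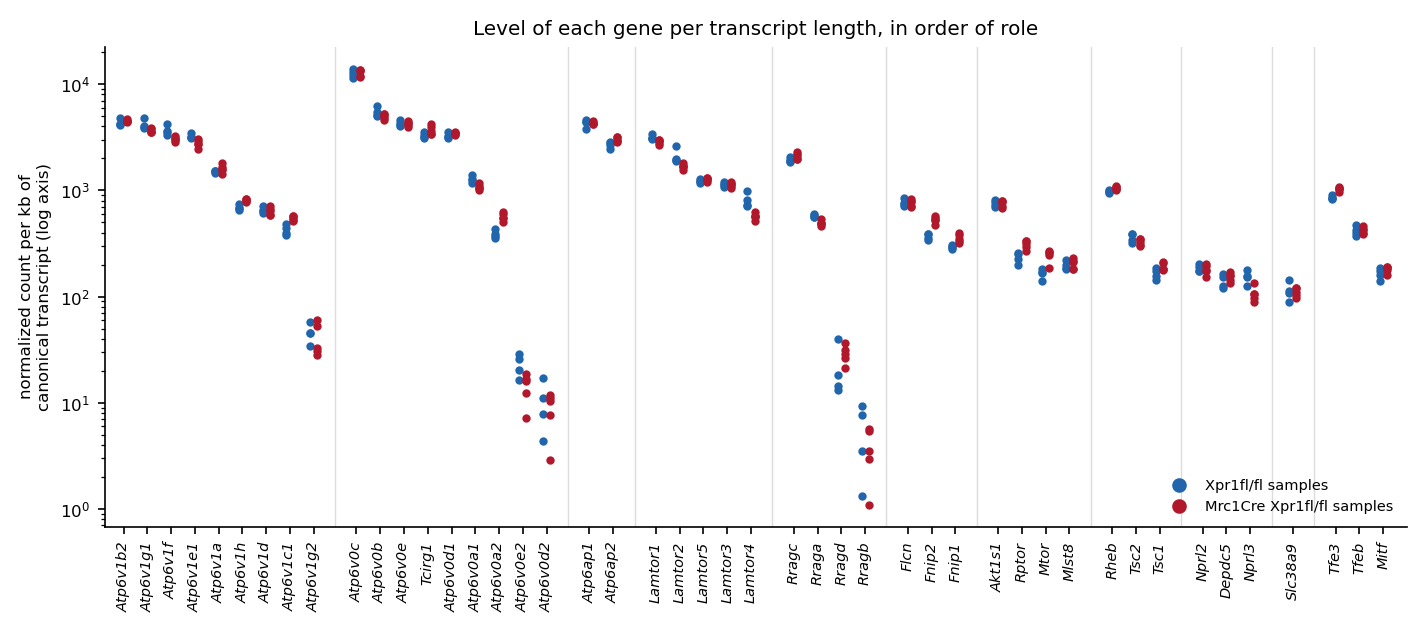
Normalized counts per kilobase of canonical transcript (log axis) for the 46 genes, grouped by role, with a point for each Xpr1fl/fl (left, blue) and Mrc1Cre Xpr1fl/fl (right, red) sample. Atp6v0c is the highest and Rragb the lowest, and within most genes the genotypes lie far closer together than the genes do.

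Ragulator fell in 3 of its 5 genes (60.0%) and rose in none, where 21.6% of all genes tested were lower and 21.5% higher. *Lamtor1*, the lipid-anchored scaffold that ties the complex to the lysosome, was the most abundant per kilobase and was read at 3312, 3242, 3137, 3006 and 3316 normalized counts in Mrc1Cre Xpr1fl/fl samples 1 to 5 and 3764, 3427, 3523 and 3475 in Xpr1fl/fl samples 1 to 4. All Mrc1Cre Xpr1fl/fl samples were below all controls, by a small margin (log2 difference -0.15, SE 0.05, adjusted p = 0.0319), and the call was lost in 5 of the 9 fits that left out a sample (without Mrc1Cre Xpr1fl/fl sample 2, 3 or 4 or Xpr1fl/fl sample 1 or 3, adjusted p up to 0.0797). *Lamtor4* had the largest fall of the complex, at 543 to 661 against 754 to 1046 normalized counts (log2 difference -0.49, SE 0.10, adjusted p = 0.00251). *Lamtor2* ranged from 1037 to 1212 against 1271 to 1743 (log2 difference -0.31, SE 0.09, adjusted p = 0.0189), Xpr1fl/fl sample 1 being the highest for both. Both stayed past the threshold in all 9 fits that left out a sample. *Lamtor3* and *Lamtor5* gave no call, with log2 differences of -0.01 and 0.05 (adjusted p = 0.94 and 0.484). With trends of transcript length and GC content removed, *Lamtor4* alone stayed lower (-0.32, adjusted p = 0.0145) and *Lamtor5* was called higher (0.18, adjusted p = 0.0277). In the fit with the date the differences of *Lamtor1*, *Lamtor2* and *Lamtor4* were -0.11, -0.34 and -0.41 and none passed (adjusted p = 0.489, 0.223 and 0.158). Exons of *Lamtor1* and *Lamtor4* overlap those of *Lrrc51* and *Trappc14* on the other strand, and whether the counting used strand is not given in the sources used here.

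A Rag GTPase is a pair of RagA or RagB with RagC or RagD. Of these genes *Rragc* was the most abundant per kilobase and was read at 5204, 5134, 6050.5, 5719.5 and 5529 normalized counts in Mrc1Cre Xpr1fl/fl samples 1 to 5 and 5351, 4882, 4851 and 5065 in Xpr1fl/fl samples 1 to 4. Mrc1Cre Xpr1fl/fl samples 3, 4 and 5 were above all controls and the other 2 within their range (log2 difference 0.13, SE 0.06, adjusted p = 0.0872). Its partner gene *Rraga* fell, from 749 to 872 against 904 to 976 normalized counts without overlap (log2 difference -0.22, SE 0.06, adjusted p = 0.0125), and the fit with the date gave -0.24 (adjusted p = 0.207). The paralogs were scarce. *Rragd*, a target of the MiT/TFE factors in other cells, was read at 134, 106, 185, 158 and 145 normalized counts in Mrc1Cre Xpr1fl/fl samples 1 to 5 and 203, 66.3, 73.5 and 91.6 in Xpr1fl/fl samples 1 to 4. Xpr1fl/fl sample 1 alone was above all Mrc1Cre Xpr1fl/fl samples, and the other 3 controls were below all of them, so that the difference missed the threshold with that sample (log2 difference 0.55, SE 0.29, adjusted p = 0.154) and passed it without (0.90, adjusted p = 0.00526). *Rragb* had 2.6 to 22.4 normalized counts which is too few to read a difference from (log2 difference -0.37, SE 0.58, adjusted p = 0.636). RagA and RagC thus made up at least 98.5% and 98.1% of their pairs of paralogs per kilobase in every sample.

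In the folliculin complex both partners rose and folliculin itself gave no call. *Flcn*, which stimulates GTP hydrolysis by RagC and RagD, was read at 2447, 2421, 2849, 2767 and 2665 normalized counts in Mrc1Cre Xpr1fl/fl samples 1 to 5 and 2907, 2450.3, 2657 and 2591 in Xpr1fl/fl samples 1 to 4, with the genotypes overlapping (log2 difference -0.01, SE 0.07, adjusted p = 0.901). *Fnip2* was read at 3977, 3847, 4129.7, 3816 and 3384 normalized counts in Mrc1Cre Xpr1fl/fl samples 1 to 5 and 2788, 2488, 2561 and 2799.5 in Xpr1fl/fl samples 1 to 4. The lowest Mrc1Cre Xpr1fl/fl sample, number 5, was still above the highest control (log2 difference 0.53, SE 0.06, adjusted p = 0.000117), and the gene was past the threshold in all 9 fits that left out a sample and in the fit with the date (0.38, adjusted p = 0.0323). *Fnip1* ranged from 2027 to 2528 against 1764 to 1909.8 normalized counts, also without overlap (log2 difference 0.28, SE 0.07, adjusted p = 0.00707), and had a difference of 0.14 in the fit with the date (adjusted p = 0.49).

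In mTORC1 the kinase and its scaffold rose and the other 2 subunits gave no call. *Mtor* was read at 2125, 2259.5, 2206, 2285 and 1615 normalized counts in Mrc1Cre Xpr1fl/fl samples 1 to 5 and 1209, 1466, 1432 and 1579 in Xpr1fl/fl samples 1 to 4. Mrc1Cre Xpr1fl/fl sample 5 stood apart from the other 4 and was only just above the highest control (log2 difference 0.56, SE 0.11, adjusted p = 0.00191, 1.47 times the control level). *Rptor*, which brings substrates and the Rags to the kinase, ranged from 1752 to 2209 against 1296 to 1680.5 normalized counts with the same sample lowest in its group (log2 difference 0.41, SE 0.09, adjusted p = 0.0045). In the fit with the date the log2 differences of *Mtor* and *Rptor* were 0.24 and 0.25 and neither passed (adjusted p = 0.211 and 0.279). *Akt1s1*, the inhibitor PRAS40 and the most abundant of the 4 per kilobase, was read at 1322, 1170.1, 1299, 1132 and 1313 normalized counts in Mrc1Cre Xpr1fl/fl samples 1 to 5 and 1344, 1290.2, 1196 and 1166 in Xpr1fl/fl samples 1 to 4, and *Mlst8*, a stabilising subunit, ranged from 707 to 887 against 695 to 849. Both overlapped between the genotypes and neither passed the test (log2 difference -0.00, SE 0.07, adjusted p = 0.976 and log2 difference 0.07, SE 0.09, adjusted p = 0.563).

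*Rheb*, *Tsc1* and *Tsc2* gave no call, with 2 of 3 under an unadjusted p of 0.05 in limma. *Rheb* was read at 1966, 1859.5, 1821, 1900.0 and 1792 normalized counts in Mrc1Cre Xpr1fl/fl samples 1 to 5 and 1703, 1769, 1775 and 1689 in Xpr1fl/fl samples 1 to 4. All Mrc1Cre Xpr1fl/fl samples lay above all controls, but by little (log2 difference 0.11, SE 0.05, adjusted p = 0.0944). *Tsc1*, the partner that stabilises TSC2, ranged from 1414 to 1654 against 1134 to 1450.4 normalized counts and just missed the threshold (log2 difference 0.22, SE 0.08, adjusted p = 0.0517). It passed without Mrc1Cre Xpr1fl/fl sample 5 (0.24, adjusted p = 0.0421), without Xpr1fl/fl sample 2 (0.25, adjusted p = 0.0495) and without Xpr1fl/fl sample 4 (0.27, adjusted p = 0.0265). *Tsc2*, the part that acts on *Rheb*, ranged from 2058 to 2411 against 2198 to 2669.7 (log2 difference -0.13, SE 0.07, adjusted p = 0.177) and was called lower when samples were scaled to the 75th percentile (-0.21, adjusted p = 0.0396).

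GATOR1 is the brake on RagA and RagB, and its gene *Nprl3* fell. *Nprl3* was read at 303, 301, 278, 253 and 381 normalized counts in Mrc1Cre Xpr1fl/fl samples 1 to 5 and 364, 449.7, 438 and 506 in Xpr1fl/fl samples 1 to 4. All but 1 of the Mrc1Cre Xpr1fl/fl samples were below all controls, and sample 5 lay between Xpr1fl/fl sample 1 and the rest (log2 difference -0.54, SE 0.13, adjusted p = 0.00624). Its exons share 2960 bases with those of *Mpg* on the other strand, and the gene lies beside the alpha-globin cluster, whose genes were lower in the same samples. With the erythroid score as a covariate the difference of *Nprl3* was -0.07 (adjusted p = 0.955), and the fit with the date gave -0.12 (adjusted p = 0.694). The erythroid score also took *Mtor* from 0.56 to 0.14 and *Atp6v1c1* from 0.37 to 0.03. It left *Atp6v0a2* at 0.33 and *Fnip2* at 0.36, and no gene of the set passed in that fit. Whether the fall of *Nprl3* is tied to erythroid transcripts was not tested. *Nprl2*, its partner and the most abundant of GATOR1 per kilobase, was read at 274, 348, 315, 308 and 359 normalized counts in Mrc1Cre Xpr1fl/fl samples 1 to 5 and 359, 312, 336 and 309 in Xpr1fl/fl samples 1 to 4, with the genotypes interleaved (log2 difference -0.04, SE 0.10, adjusted p = 0.769). *Depdc5*, the remaining GATOR1 subunit, ranged from 1082 to 1364 against 969 to 1314 normalized counts (log2 difference 0.13, SE 0.10, adjusted p = 0.33). *Slc38a9*, which senses arginine in the lysosome, was read at 869, 1077, 984, 1077 and 928 normalized counts in Mrc1Cre Xpr1fl/fl samples 1 to 5 and 794, 999.6, 962 and 1276 in Xpr1fl/fl samples 1 to 4 and had both its lowest and its highest value among the controls (log2 difference -0.01, SE 0.12, adjusted p = 0.936).

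**Figure D4:**
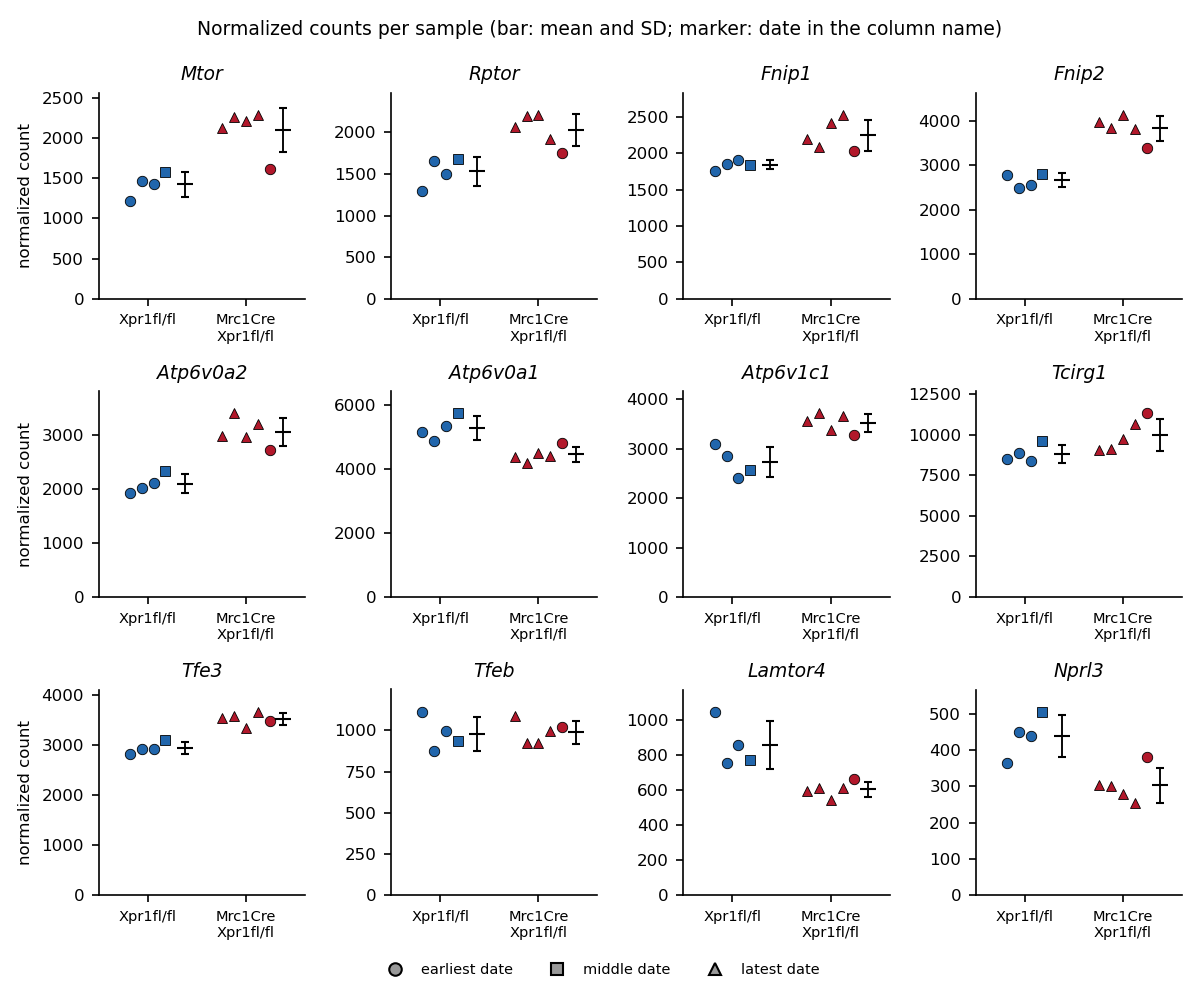
Normalized counts of 12 genes in each sample (y axis from 0), with the mean and SD beside the points and a marker shape for the date in the column name. Mrc1Cre Xpr1fl/fl sample 5 (circle among the red points) is the lowest of its group for Mtor, Rptor, Fnip1, Fnip2, Atp6v0a2 and Atp6v1c1. It is the highest of its group for Tcirg1, Nprl3, Atp6v0a1 and Lamtor4.

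Among the MiT/TFE factors *Tfe3* rose and *Tfeb* and *Mitf* gave no call. With trends of transcript length and GC content removed, *Tfeb* was called higher as well (0.34, adjusted p = 0.00221). *Tfe3*, the most abundant of the 3 per kilobase, was read at 3535, 3571, 3336, 3667 and 3487 normalized counts in Mrc1Cre Xpr1fl/fl samples 1 to 5 and 2818, 2914, 2919 and 3098 in Xpr1fl/fl samples 1 to 4. The genotypes did not overlap (log2 difference 0.26, SE 0.05, adjusted p = 0.00129), the call held in all 9 fits that left out a sample, and the fit with the date gave 0.27 (adjusted p = 0.0638). *Tfeb* was read at 1086, 925, 922, 998 and 1019 normalized counts in Mrc1Cre Xpr1fl/fl samples 1 to 5 and 1115, 872, 994 and 937 in Xpr1fl/fl samples 1 to 4, a spread in which Xpr1fl/fl samples 1 and 2 were the highest and the lowest of all (log2 difference 0.02, SE 0.08, adjusted p = 0.877). *Mitf* was read at 938, 879.5, 940.3, 913 and 793 normalized counts in Mrc1Cre Xpr1fl/fl samples 1 to 5 and 797, 696, 913 and 861 in Xpr1fl/fl samples 1 to 4, with the genotypes overlapping (log2 difference 0.13, SE 0.09, adjusted p = 0.237). *Tfe3* made up 61.4 to 64.7% of the summed level of the 3 genes per kilobase in Mrc1Cre Xpr1fl/fl samples and 56.5 to 62.5% in controls.

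These factors bind E-box letters of the form TCACGTG, and the start sites of the set were searched for them. RefSeq promoter windows (GRCm38.p6, 250 bases before to 50 bases after the start) were found for 39 of the 46 genes, and 10 of these held TCACGTG on either strand, against 4.29% of all 27025 genes with a window. The shorter CACGTG, which TCACGTG contains, was in the same number of them and in 8.09% of all genes. The 10 were *Atp6v0b*, *Atp6v0d1*, *Atp6v0e*, *Atp6v1a*, *Fnip1*, *Lamtor1*, *Lamtor4*, *Rheb*, *Rragb* and *Rragc*, of which *Fnip1* was called higher, *Lamtor1* and *Lamtor4* lower, and 7 gave no call. The letters thus stood near the start of genes that rose, of genes that fell and of genes with no call. Shown are windows upstream of their gene in GENCODE, for the 3 called genes and for *Rragc*, the most abundant Rag gene, with the matched letters in capitals (TCACGTG or, read on the other strand, CACGTGA), 5′ to 3′ on the plus strand, which is the strand of all 4 genes.
Fnip1: agtttgctgcCACGTGAtacggctcgt
Rragc: tgattccgggCACGTGAtagtaccact
Lamtor1: tgccttcctaTCACGTGccgcgggtcc
Lamtor4 distal: agaaagttaaCACGTGAacagcttttc
Lamtor4 proximal: gaacagctttTCACGTGtaaaccaaac
By exact match of the RefSeq windows to GRCm39, the *Fnip1* sequence lies at chr11:54328920-54328946, that of *Rragc* at chr4:123811104-123811130 and that of *Lamtor1* at chr7:101554965-101554991. The *Lamtor4* sequences lie at chr5:138253614-138253640 and chr5:138253629-138253655 and overlap each other. They end 32 (*Fnip1*), 87 (*Rragc*), 120 (*Lamtor1*), 104 and 89 bases (*Lamtor4*) before the start of the gene in GENCODE. In the same annotation the sequence of *Rragc* lies in an exon of *Gm12905*, that of *Lamtor1* in an exon of *Tomt* and those of *Lamtor4* in an exon of *Gm73253*. A match of letters does not show that a factor binds there.

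Transcript length moved with the direction of the calls. The 9 higher genes had canonical transcripts of 2.37 to 8.60 kb (median 6.31 kb) and the 9 lower genes of 0.668 to 4.14 kb (median 1.14 kb). Over the 46 genes the log2 difference and the length had a Spearman rho of 0.612, and over 13584 genes tested, which share the same libraries, of 0.152. Among all genes the share called higher went from 10.8% in the shortest 1 of 5 equal bins of length to 34.5% in the longest, and the share called lower from 24.6% to 17.4%. When trends with length and GC content were removed from each sample, an alternative chosen after seeing the data, 20 of the 46 genes were higher and 2 lower (*Lamtor4* and *Nprl3*). The removal also brought every sample to the same mean log2 level over the genes tested. The part of that re-centring in the changed calls was not tested. The whole step called 48.6% of all genes, with 4368 higher (32.2%) and 2232 lower (16.4%) of 13584. The median over all genes was then 0.10 and over the 46 genes 0.15. *Mtor* (0.63), *Rptor* (0.53), *Fnip2* (0.59), *Atp6v0a2* (0.65) and *Tfe3* (0.44) were higher there too (adjusted p = 0.000193, 0.00063, 4.79e-05, 3.44e-05 and 9.82e-05). Called higher only with that step were *Atp6v1b2*, *Atp6v0c*, *Atp6v0d1*, *Tcirg1*, *Atp6ap1*, *Lamtor5*, *Rragc*, *Akt1s1*, *Rheb*, *Tsc1* and *Tfeb*, when set against the fit without it. *Lamtor1* (0.04, adjusted p = 0.525), *Lamtor2* (-0.19, adjusted p = 0.125) and *Rraga* (-0.07, adjusted p = 0.4), like *Atp6v0a1* and the stalk genes, were no longer past the threshold.

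**Figure D5:**
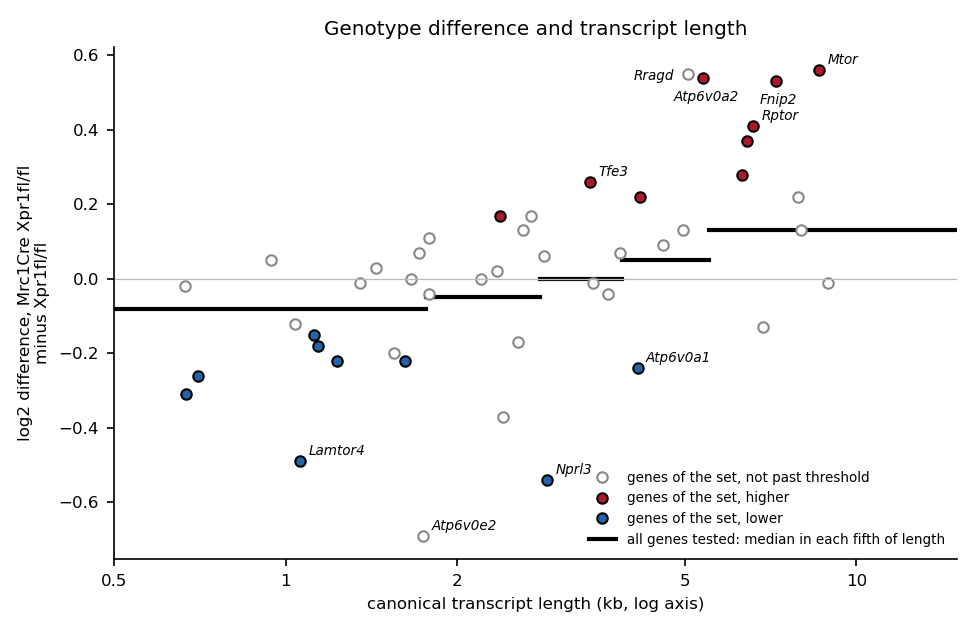
Log2 difference between the genotypes against canonical transcript length (kb, log axis) for the 46 genes, with black lines for the median of all genes tested in each of 5 bins of length. The 9 higher genes are 2.37 to 8.60 kb long and the 9 lower ones 0.668 to 4.14 kb, and the median over all genes goes from -0.08 in the shortest to 0.13 in the longest bin.

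Around these genes stand 87 others of the same pathways, of which 18 rose and 22 fell. The median log2 difference was -0.02, and 46.0% were called, against 43.1% of all genes tested. The fit with the date left 4 of them higher and 9 lower. Among 11 genes for the assembly of the pump 4 rose and 2 fell. The rabconnectin genes *Dmxl1* (log2 difference 0.62, SE 0.13, adjusted p = 0.00314) and *Dmxl2* (log2 difference 0.37, SE 0.10, adjusted p = 0.0129), whose proteins help to join V1 to V0, were higher, while *Rogdi*, a partner of theirs, fell from 1143 to 685 normalized counts on average (log2 difference -0.74, SE 0.09, adjusted p = 8.36e-05) and *Tmem9* from 483 to 279.5 (log2 difference -0.80, SE 0.13, adjusted p = 0.000502).

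The amino acid sensors split, with 2 of 8 higher and 2 lower. *Sesn1*, a p53 target that restrains mTORC1, was lower at 2888 ± 134 (SD, n = 5) against 4239 ± 168 (SD, n = 4) normalized counts (log2 difference -0.55, SE 0.05, adjusted p = 2.33e-05), and so was *Sesn3* (log2 difference -0.45, SE 0.14, adjusted p = 0.0229). The leucine sensor *Sesn2*, a target of ATF4, was higher at 1271 ± 98.5 (SD, n = 5) against 922 ± 76.3 (SD, n = 4) (log2 difference 0.46, SE 0.08, adjusted p = 0.000744). The methionine pathway sensor *Samtor* was higher as well (log2 difference 0.28, SE 0.06, adjusted p = 0.00277). In the fit with the date *Sesn1* (-0.48, adjusted p = 0.00654) and *Sesn2* (0.51, adjusted p = 0.0454) were still past the threshold. The call of *Sesn3* was lost without Mrc1Cre Xpr1fl/fl sample 3 or Xpr1fl/fl sample 3 (adjusted p up to 0.0581). Of 9 GATOR2 and KICSTOR genes, *Kptn* alone passed the test, lower (log2 difference -0.43, SE 0.12, adjusted p = 0.0159). *Kptn* did not pass with trends of length and GC content removed (-0.28, adjusted p = 0.083). The third TSC subunit, AMPK and growth inputs gave 1 higher and 4 lower of 12, with *Prkag2* the rise (log2 difference 0.42, SE 0.12, adjusted p = 0.0161) and *Prkab1* the largest fall (log2 difference -0.45, SE 0.08, adjusted p = 0.00118), both regulatory subunits of AMPK. The mTOR inhibitor *Deptor* fell as well (log2 difference -0.40, SE 0.13, adjusted p = 0.0245). Its call was lost in 3 of the 9 fits that left out a sample (without Mrc1Cre Xpr1fl/fl sample 1 or Xpr1fl/fl sample 2 or 3, adjusted p up to 0.0714). For *Deptor* the fit with the date gave -0.80 (adjusted p = 0.0219). Of the genes for the maturation of mTOR and for mTORC2, 2 of 7 rose, *Prr5l* (log2 difference 0.79, SE 0.20, adjusted p = 0.00829) and *Rictor* (log2 difference 0.28, SE 0.09, adjusted p = 0.0288), both parts of mTORC2. The call of *Rictor* was lost in 3 of the 9 fits that left out a sample (without Mrc1Cre Xpr1fl/fl sample 2 or 4 or Xpr1fl/fl sample 1, adjusted p up to 0.0725) and when samples were scaled to the 75th percentile (0.20, adjusted p = 0.0838).

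Genes of mTORC1 substrates gave 3 higher and 5 lower of 12. The largest fall was that of *Grb10*, an adaptor that damps insulin signalling, at 545 ± 107 (SD, n = 5) against 1362 ± 97.9 (SD, n = 4) normalized counts (log2 difference -1.34, SE 0.13, adjusted p = 3.26e-05), followed by *Pdcd4*, an inhibitor of translation (log2 difference -0.75, SE 0.08, adjusted p = 4.96e-05). *Atg13*, of the autophagy starter complex, and *Larp1*, which binds the mRNAs of ribosomal proteins, had the largest rises (log2 difference 0.37, SE 0.06, adjusted p = 0.000483 and log2 difference 0.37, SE 0.07, adjusted p = 0.00112). Lysosomal genes of the TFEB network moved both ways, 6 higher and 5 lower of 20. *Gpnmb*, a known target of MiT/TFE factors, rose the most, at 2578 ± 563 (SD, n = 5) against 697 ± 199.6 (SD, n = 4) normalized counts (log2 difference 1.90, SE 0.20, adjusted p = 4.9e-05), before the alpha-galactosidase gene *Gla* (log2 difference 0.79, SE 0.11, adjusted p = 0.000259). *Wipi1*, an autophagy protein, fell the most (log2 difference -1.17, SE 0.11, adjusted p = 2.69e-05). *Gpnmb*, *Gla* and *Wipi1* were also past the threshold in the fit with the date (1.20, 0.72 and -0.91). Of 8 genes for BORC, the complex that moves lysosomes and binds Ragulator, none rose and 3 fell, *Borcs6* (log2 difference -0.40, SE 0.10, adjusted p = 0.00743) and *Borcs8* (log2 difference -0.32, SE 0.10, adjusted p = 0.0227) with the largest differences. The call of *Borcs8* was lost in 3 of the 9 fits that left out a sample (without Mrc1Cre Xpr1fl/fl sample 1 or 3 or Xpr1fl/fl sample 3, adjusted p up to 0.0754). With trends of length and GC content removed, *Borcs6* and *Borcs8* were at -0.07 and -0.18 (adjusted p = 0.493 and 0.141). Of the other pathway genes named, those that did not pass in the fit with the date were *Dmxl1*, *Dmxl2*, *Tmem9*, *Sesn3*, *Samtor*, *Kptn*, *Prkag2*, *Prkab1*, *Prr5l*, *Rictor*, *Larp1*, *Borcs6* and *Borcs8*.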

How the data were processed

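Bulk RNA-seq was done on sorted FL macrophages of 5 Mrc1Cre Xpr1fl/fl and 4 Xpr1fl/fl samples. According to the methods and the submitters' processing notes, reads passed FastQC, were assigned to transcripts of GRCm39 with salmon, imported with tximport and normalized with DESeq2, and no tool versions are given in the sources used here. The deposited values are a signal, gene counts that the authors divided by DESeq2 normalization factors, so totals per sample (26942921 to 28309443) reflect that scaling and absolute depth is unknown. The whole reads were not recovered, since at the best step 26.5 to 49.7% of values under 10 were within 0.05 of a step of a whole multiple, and no count test was run.

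Symbols, positions and canonical transcript lengths were taken from GENCODE release 39 for mouse (GRCm39), which named 13698 of 13708 genes. The genotypes were compared with limma 3.58.1 in R 4.3.3 (lmFit, eBayes with trend) on log2(normalized count + 1). A gene was tested if 4 or more samples reached 10 normalized counts, with Benjamini-Hochberg adjustment over every gene tested and a threshold of 0.05. The code was tested on simulated data. Levels between genes are compared only per kilobase of canonical transcript. Groups came from the sample labels. Per-sample values are given for called genes with a log2 difference of at least 0.5, for *Mtor*, *Tfeb*, *Tfe3*, *Mitf*, *Rragc*, *Rragd*, *Tcirg1*, *Atp6v0d1* and *Atp6v0d2* and for the most abundant gene of each role, and among the other pathway genes up to 2 called genes are named in each direction for each list, except that some genes are not reported here. The genes of the set, the lists and the tests were chosen with earlier results of these data known. Plots were made in Python 3.11.15 (matplotlib 3.10.9). Alternatives covered the pseudocount, the filter, the scaling, the variance model, the date, erythroid transcripts, length and GC content, and single samples.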

Additional observations from a re-analysis of the deposited data

Results flagged for a closer look

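In 4 of 92 groups (46 genes in each genotype) a single sample lay far from the others by Dixon's test, where chance gives about 1 in 20, or 4.60 groups. *Mtor* in Mrc1Cre Xpr1fl/fl sample 5 was 1615, and the other 4 samples were 2125 to 2285. *Lamtor2* in Xpr1fl/fl sample 1 was 1743 with the others at 1271 to 1319.9. *Atp6v1b2* in the same sample was 13549, against 11696 to 11958. *Atp6v1a* in Xpr1fl/fl sample 2 was 6672, against 6966 to 6987. Without the sample named, *Mtor* and *Lamtor2* were still past the threshold, and *Atp6v1a* and *Atp6v1b2* were still not.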

How the results depend on the processing

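The set gave 4 higher and 4 lower V-ATPase genes, 5 higher and 5 lower nutrient-sensing genes, and 18 higher and 22 lower other pathway genes. Pseudocounts of 0.5 and 10, no filter, a filter at 50 normalized counts, limma without trend, robust or with array weights, and *Ddx3y* as a covariate (chosen after seeing the data) kept each of these counts within 1.5 times. *Ddx3y*, a marker of sex, was at most 2.7 normalized counts in Mrc1Cre Xpr1fl/fl samples 3 and 4 and Xpr1fl/fl samples 1 and 2. In the other samples, of both genotypes, it was read at 2420 to 2803. With that covariate *Atp6v1g1* lost its call (-0.17, adjusted p = 0.0656) and *Rragc* gained one (0.15, adjusted p = 0.0464). Leaving out each sample in turn gave 3 to 4 and 3 to 4, 5 to 6 and 4 to 5, and 18 to 20 and 16 to 22. Scaling to the 75th percentile and quantile normalization each left 2 higher V-ATPase genes. With the date as a term there were 2 higher and 1 lower V-ATPase genes, 1 higher and 0 lower nutrient-sensing genes (7 of all 46 at an unadjusted p under 0.05 in limma), and 4 higher and 9 lower other pathway genes. With the erythroid score as a covariate all 6 counts were 0 (3 of the 46 genes at an unadjusted p under 0.05), and *Atp6v1e1* and *Atp6v0a1* turned to 0.05 and 0.07. With trends of transcript length and GC content removed (chosen after seeing the data) the counts were 9 and 0, 11 and 2, and 30 and 15, and *Lamtor1* turned to 0.04, *Atp6ap1* to 0.16 and *Akt1s1* to 0.30, of which *Atp6ap1* and *Akt1s1* gave no call without that step. The cause of these shifts was not tested. The replicate number as a block gave 4 and 4, 6 and 6, and 20 and 24, adding *Tsc1* (0.24) and *Tsc2* (-0.16), but the samples share only a number: deviations of same-numbered samples correlated at -0.0333, 0.147, -0.0113 and -0.0313, and not every sample correlated best with its own number. A count test was not run, because whole reads were not recovered. Genes of few counts, such as *Rragb*, *Atp6v0d2* and *Atp6v0e2*, have standard errors of 0.30 to 0.58, which hide differences of the size seen elsewhere in the set.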
